A study of Mus musculus with 6 samples.

Results

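A group of 10 genes of NF-kB signalling and inflammatory cytokine production, Tnf, Il1a, Il1b, Il18, Cd83, Nfkbia, Nfkb1, Rela, Tnfaip3 and Nlrp3, were followed through 6 single-nucleus RNA libraries of mouse hippocampus. They were taken by name, with earlier results of these data known. They are 10 of the 31053 genes in the count matrices, and all 10 passed the filter on low counts. The libraries came from PU.1-sorted nuclei of mice aged 9.5 months, 1 library per genotype, and each library pooled 3 mice. Tau P301S is a mutant human tau that drives tau pathology in mice, APOE4 (E4) is the human APOE allele linked to Alzheimer's disease risk, EKO is loss of Apoe, and TREM2 is a lipid-sensing receptor of microglia. There were 3 backgrounds, E4, then P301S/EKO, then P301S/E4, and each was taken with TREM2 (TREM2+) and lacking it (TREM2-). Values by library run through the backgrounds in that order, with the TREM2+ library first in each. The E4 mice carried APOE4 without P301S. The promoter of the tau transgene is not given in the sources used here.

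NF-kB is a family of transcription factor dimers that rest in the cytoplasm bound to inhibitor proteins. Signals from TNF, IL-1 and pattern receptors release the dimers, which then switch on cytokines and also their own inhibitors, so the pathway is self-limiting. Microglia use it to make TNF and the IL-1 cytokines, and the NLRP3 inflammasome activates caspase-1, which cuts the precursors of IL-1 beta and IL-18.

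After quality filtering, 31738 nuclei with 28636665 unique molecular identifiers (UMIs) remained, 3172124 to 8376816 UMIs per library. Median UMIs per nucleus were 572, 710, 807, 569, 775 and 915. The 23 microglia markers summed to between 24330 and 35190 CPM (counts per 1000000 UMIs of the library) in every library, and 28746 nuclei fell in microglia-like clusters. Trem2 was 348 to 580 CPM in the TREM2- libraries against 917 to 1114 CPM in the TREM2+ libraries, so part of the transcript was still counted. UMIs assigned to the Apoe gene of the mouse genome were 14.2 and 9.14 CPM in the P301S/EKO libraries against 187 to 1184 CPM in the others. The labels do not say whether the counts of those other libraries, all with APOE4, come from mouse or human transcripts. With 1 library per genotype, the genotype and the library cannot be told apart. The tests below therefore come from an additive fit over all 6 libraries, with background and TREM2 genotype as terms. P-values measure only the spread between these pooled libraries around that fit.

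The tau comparison, P301S/E4 minus E4 over both TREM2 genotypes, moved these genes in opposite directions. Cd83, Tnf, Nfkbia and Nfkb1 rose and Il1b fell, while Il1a, Il18, Rela, Tnfaip3 and Nlrp3 were not called. The calls were 4 higher and 1 lower of 10, from edgeR's quasi-likelihood F test, with p-values adjusted by Benjamini and Hochberg's method and a threshold of 0.05. Across all 12515 genes tested 17.0% were called in this comparison, 7.80% higher and 9.24% lower. DESeq2 called 3 of the 10, Cd83, Tnf and Nfkbia, all higher, where it called 1347 of the 12515 genes tested. The median log2 fold change of the 10 genes was 0.33, and that of all genes tested was -0.0015. The 2 other comparisons, of APOE4 and of TREM2, called 0 of the 10 genes.

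**Figure D1:**
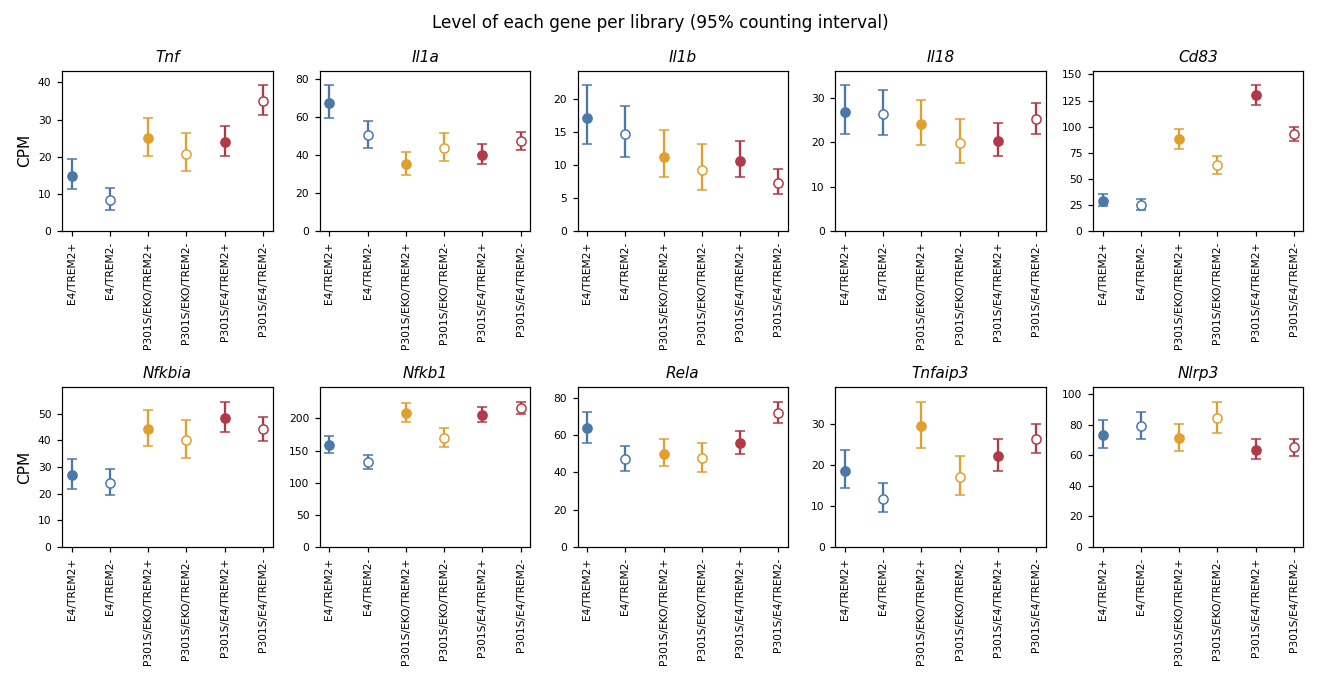
Level of each of the 10 genes in each library, in CPM, with its exact Poisson 95% interval; filled points are TREM2+ and open points TREM2- libraries, blue is E4, yellow P301S/EKO and red P301S/E4. Cd83 and Tnf are higher in all 4 libraries with P301S than in both E4 libraries, and Il1b is lower in all 4.

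Tnf encodes tumour necrosis factor, a cytokine that both activates NF-kB and is made under its control. It lies on chr17:35199381-35202007 of GRCm38 (ENSMUSG00000024401). Its level was 14.9, 8.22, 24.9, 20.8, 23.9 and 35.0 CPM in the 6 libraries, from 53, 33, 93, 66, 138 and 293 UMIs. Both E4 libraries were below all 4 libraries with P301S, and P301S/E4/TREM2- was the highest. Tnf rose 2.51-fold in the tau comparison (log2 fold change 1.33, SE 0.29, edgeR adjusted p = 0.00981). Taken pair by pair, P301S/E4 exceeded E4 by 1.60-fold with TREM2 (95% counting interval of the log2 ratio 0.21 to 1.17) and by 4.26-fold without it (1.57 to 2.66). The difference between those ratios was not tested, since each rests on 1 library per genotype. Without the E4/TREM2- library the Tnf log2 fold change was 0.86 with an edgeR adjusted p of 0.16, so the call depended on that library.

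The TREM2 pairs of Tnf did not share a direction. Without TREM2 its level was 0.552-fold that with TREM2 on the E4 background (log2 interval -1.53 to -0.20) and 0.836-fold on P301S/EKO (-0.74 to 0.21). On P301S/E4 it was 1.46-fold (0.25 to 0.85). The additive TREM2 contrast for Tnf, which averages over these backgrounds, was -0.05 (SE 0.23, edgeR adjusted p = 0.993).

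Il1b encodes the precursor of interleukin-1 beta, the IL-1 cytokine that needs cutting by caspase-1 to become active. It lies on chr2:129364570-129371139 of GRCm38 (ENSMUSG00000027398). Its level was 17.1, 14.7, 11.2, 9.14, 10.6 and 7.28 CPM, from 61, 59, 42, 29, 61 and 61 UMIs. The 2 E4 libraries were the highest and P301S/E4/TREM2- was the lowest, the reverse of Tnf. In each background the TREM2- library was the lower of its pair, but each of these ratios had a counting interval that reached 0 on the log2 scale. Il1b fell by 0.90 on the log2 scale in the tau comparison (0.536-fold, SE 0.26, edgeR adjusted p = 0.0362). The pair ratios were 0.616 with TREM2 (log2 interval -1.24 to -0.16) and 0.496 without it (-1.55 to -0.47).

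The direction of Il1b held in 15 of 15 alternatives but its call in only 8 of them. With DESeq2 the log2 fold change was -0.90 with an adjusted p of 0.217. Leaving out the E4/TREM2+, E4/TREM2- or P301S/E4/TREM2- library gave edgeR adjusted p-values of 0.115, 0.312 and 0.151. Over nuclei in microglia-like clusters alone it was -1.08 (edgeR adjusted p = 0.0241), and thinned to 500 UMIs per nucleus it was -1.28 (edgeR adjusted p = 0.0113). The antisense gene Il1bos overlaps Il1b and was counted at 0.346 to 2.25 CPM.

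Which nuclei were counted also bore on Il1b. The nuclei left out for over 5% mitochondrial UMIs held 24 Il1b UMIs in P301S/E4/TREM2-, in 12 of 334 nuclei, or 70.6 CPM (45.2 to 105). In P301S/E4/TREM2+ such nuclei held 5 Il1b UMIs in 81 nuclei, and in the 4 other libraries 0 to 6. With these nuclei kept, the tau log2 fold change of Il1b was -0.66 (edgeR adjusted p = 0.0862). A cluster led by immediate early and chemokine genes (Egr1, Ccl3, Ier2) made up 8.10% and 6.86% of the E4 nuclei against 0.471% to 1.68% of the others. Without that cluster the value was -0.68 (edgeR adjusted p = 0.132). The part these nuclei play in the result was not tested further.

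Il1a encodes interleukin-1 alpha, which acts through the same receptor as IL-1 beta. It is the neighbour of Il1b on chromosome 2 (chr2:129299610-129309972, GRCm38, ENSMUSG00000027399). Its level was 67.7, 50.6, 35.1, 43.8, 40.2 and 47.3 CPM, from 131 to 396 UMIs. E4/TREM2+ stood above the rest, and E4/TREM2- was 50.6 CPM against 47.3 CPM in P301S/E4/TREM2-. The tau log2 fold change was -0.48 (SE 0.19, edgeR adjusted p = 0.115). The pair ratio was 0.593 with TREM2 (log2 interval -1.02 to -0.49) and 0.935 without it (-0.34 to 0.15).

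Il18 encodes the precursor of interleukin-18, the other cytokine cut by caspase-1 (chr9:50554827-50581840, GRCm38, ENSMUSG00000039217). Its level stayed between 19.9 and 27.0 CPM in the 6 libraries, from 63 to 212 UMIs. Its tau log2 fold change was -0.27 (SE 0.20, edgeR adjusted p = 0.449). Bco2 overlaps Il18 on the other strand and was counted at 21.4 to 29.5 CPM.

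Cd83 encodes a surface glycoprotein of activated antigen-presenting cells and a known NF-kB target (chr13:43784775-43803132, GRCm38, ENSMUSG00000015396). Its level was 28.9, 24.7, 88.0, 62.7, 130.0 and 92.9 CPM, from 103, 99, 329, 199, 751 and 778 UMIs. All 4 libraries with P301S were above both E4 libraries, and in each background the TREM2- library was the lower of its pair. Cd83 rose 3.98-fold in the tau comparison (log2 fold change 1.99, SE 0.16, edgeR adjusted p = 3.27e-05), and was called in 15 of 15 alternatives. The pair ratios were 4.49 with TREM2 (log2 interval 1.87 to 2.48) and 3.77 without it (1.61 to 2.23).

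In the APOE4 comparison, P301S/E4 minus P301S/EKO, Cd83 was 1.49-fold (log2 fold change 0.57, SE 0.14, edgeR adjusted p = 0.0557). Its pair ratio was 1.48 both with and without TREM2. That adjusted p lay close to the threshold: by edgeR it was 0.0243 after thinning and 0.0476 without the immediate early and chemokine cluster. Over the 9 alternatives that kept all 6 libraries it ran from 0.00912 (edgeR) to 0.209 (DESeq2), and 3 of them called Cd83. With 1 library left out the log2 fold change was 0.49 to 0.67. In the TREM2 comparison Cd83 had a log2 fold change of -0.40 (SE 0.12) with an unadjusted p of 0.00803 and an edgeR adjusted p of 0.498. Its TREM2 pair ratios were 0.852 on E4, 0.713 on P301S/EKO and 0.714 on P301S/E4.

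**Figure D2:**
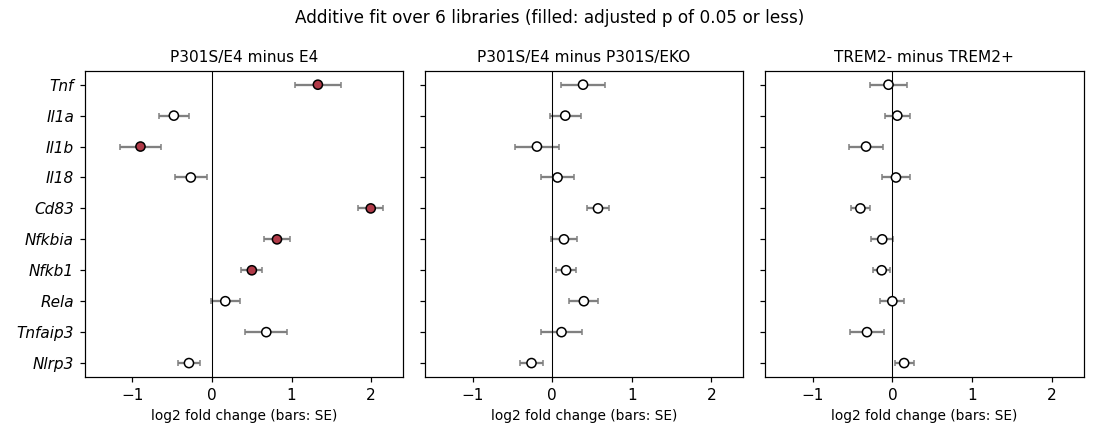
Log2 fold change of each gene in the tau (left), APOE4 (middle) and TREM2 (right) comparison of the additive fit, with bars of 1 SE; filled points had an adjusted p of 0.05 or less. Il1b at -0.90 lies opposite Cd83 at 1.99 and Tnf at 1.33 in the tau comparison, and no point is filled in the others.

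Nfkb1 and Rela encode p105/p50 and p65, the subunits of the classical NF-kB dimer. Nfkb1 (chr3:135584655-135691547, GRCm38, ENSMUSG00000028163) was 159, 131, 209, 170, 205 and 216 CPM, from 528 to 1809 UMIs, the most UMIs of the 10 genes. It rose 1.41-fold in the tau comparison (log2 fold change 0.50, SE 0.13, edgeR adjusted p = 0.0229). That call was lost with DESeq2 (adjusted p 0.0595) and without E4/TREM2+ (0.104), E4/TREM2- (0.248) or P301S/E4/TREM2- (0.0826). Rela (chr19:5637483-5648130, GRCm38, ENSMUSG00000024927) was 63.5, 47.1, 50.03, 47.6, 55.6 and 71.9 CPM. The E4 and P301S/E4 levels of Rela overlapped, and its tau log2 fold change was 0.17 (SE 0.18, edgeR adjusted p = 0.612). Its tau pair ratio was 0.875 with TREM2 (log2 interval -0.44 to 0.06) and 1.53 without it (0.37 to 0.85).

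Nfkbia and Tnfaip3 encode negative regulators that NF-kB itself induces: the inhibitor IkB-alpha and the ubiquitin-editing enzyme A20. The RefSeq promoter table (GRCm38.p6, 250 bases before to 50 after a start) held 8 of the 10 genes in 10 windows, with no entry for Cd83 and Nfkb1. A 10-base kB consensus, searched on both strands, was found in windows of Nfkbia, Tnfaip3 and Nlrp3, and 8.46% of all 32851 windows in the table held it. Tnfaip3 and Nlrp3 have 2 windows each, and only 1 window of each held it. These stretches are shown because they hold the kind of sequence that NF-kB dimers are known to bind. The match is in capitals, and each is written 5′ to 3′ on the strand of the gene. The starts are those of RefSeq, and both Tnfaip3 stretches lie inside the gene coordinates given further below.
Nfkbia, chr12:55492657-55492686, minus strand, match beginning 29 bases before the start: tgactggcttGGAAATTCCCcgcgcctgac
Tnfaip3, chr10:19015516-19015545, minus strand, 125 bases before the start: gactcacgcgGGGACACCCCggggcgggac
Tnfaip3, chr10:19015411-19015432, minus strand, 12 bases before the start: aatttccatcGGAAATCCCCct
Nlrp3, chr11:59541373-59541402, plus strand, 186 bases before the start: ggcttctgcaGGGAACCCCCgggaattctg
The AP-1 motif TGANTCA, held by 7.81% of windows, was found for Il1a and Tnfaip3. A match describes the letters in the window and is not evidence of binding, and the windows of Tnf, Il1b, Il18 and Rela held neither motif.

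Nfkbia (chr12:55489410-55492647, GRCm38, ENSMUSG00000021025) was 27.0, 23.9, 44.1, 40.0, 48.5 and 44.1 CPM, from 96 to 369 UMIs. All 4 libraries with P301S were above both E4 libraries. It rose 1.76-fold in the tau comparison (log2 fold change 0.82, SE 0.17, edgeR adjusted p = 0.00729), with pair ratios of 1.80 and 1.84. Without E4/TREM2+ or E4/TREM2- the edgeR adjusted p of Nfkbia was 0.0576 or 0.0630. Tnfaip3 (chr10:19000910-19015657, GRCm38, ENSMUSG00000019850) was 18.5, 11.7, 29.4, 17.0, 22.2 and 26.3 CPM, from 47 to 220 UMIs. Its tau log2 fold change was 0.68 (SE 0.26, edgeR adjusted p = 0.109), with a pair ratio of 1.20 with TREM2 and 2.24 without it (log2 interval 0.71 to 1.65). Without P301S/E4/TREM2- the Tnfaip3 value was 0.24 (edgeR adjusted p = 0.648). It was called without P301S/E4/TREM2+ (1.14, edgeR adjusted p = 0.00654) and with no filter on low counts (0.74, edgeR adjusted p = 0.0201). Without TREM2 the level of Tnfaip3 was 0.631-fold on E4 and 0.578-fold on P301S/EKO, and 1.19-fold on P301S/E4.

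Nlrp3 encodes the sensor of the NLRP3 inflammasome (chr11:59541568-59566956, GRCm38, ENSMUSG00000032691). Its level stayed between 63.7 and 84.5 CPM, from 262 to 546 UMIs, and was lowest in the P301S/E4 libraries. The tau log2 fold change was -0.29 (SE 0.14, edgeR adjusted p = 0.214) and the APOE4 one was -0.26 (SE 0.14, edgeR adjusted p = 0.376).

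For the TREM2 comparison, TREM2- minus TREM2+ over 3 backgrounds, edgeR called 0 of 10 genes, and 0.112% of the 12515 genes tested were called (0.0320% higher and 0.0799% lower). Cd83 alone of the 10 had an edgeR unadjusted p under 0.05, as did 778 of the 12515 genes. DESeq2 also called 0 of the 10, and 16 of the 12515. The median log2 fold change of the 10 genes was -0.09. For the APOE4 comparison edgeR called 0 of 10 genes, where 3.67% of all genes tested were called. Cd83 was again the one gene of the 10 with an edgeR unadjusted p under 0.05 (0.00225), as had 2292 of the 12515 genes. DESeq2 called 0 of the 10, and 306 of the 12515. Il1b had an APOE4 log2 fold change of -0.19 (SE 0.27, edgeR adjusted p = 0.775) and Tnf one of 0.39 (SE 0.27, edgeR adjusted p = 0.500). The fits share the P301S/E4 libraries between the tau and APOE4 comparisons.

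Set against Tnf or Cd83 within a library, Il1b took a smaller share of the UMIs in every library with P301S than in either E4 library. Of the Il1b and Tnf UMIs together, Il1b made up 53.5% and 64.1% in the E4 libraries (exact binomial 95% intervals 43.9% to 62.9% and 53.5% to 73.9%). It made up 31.1% and 30.5% in the P301S/EKO libraries, 30.7% in P301S/E4/TREM2+ and 17.2% in P301S/E4/TREM2- (13.4% to 21.6%). Of the Il1b and Cd83 UMIs together it was 37.2% and 37.3% in the E4 libraries, 11.3% and 12.7% in P301S/EKO, and 7.51% and 7.27% in P301S/E4. These shares do not depend on the scaling between libraries and are used only between libraries, since capture can differ between genes. They are taken from the same UMIs as the levels above, and a rise of Tnf or Cd83 alone lowers them. They are therefore not separate evidence of a fall of Il1b. Without the immediate early and chemokine cluster the Il1b share beside Tnf was 52.9%, 65.3%, 30.8%, 27.5%, 30.3% and 17.0%. Against Il1a, its share was 20.2%, 22.5%, 24.3%, 17.3%, 20.8% and 13.4%, with the P301S/EKO/TREM2+ share above both E4 shares.

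Few nuclei held a UMI of the cytokines. Il1b was detected in 0.865%, 0.787%, 0.837%, 0.515%, 0.760% and 0.543% of nuclei. Thinned to 500 UMIs per nucleus these shares were 0.750%, 0.589%, 0.558%, 0.496%, 0.372% and 0.228%. The thinned shares of Cd83 were 1.53%, 1.09%, 4.05%, 2.73%, 5.98% and 4.80%, and those of Tnf 0.889%, 0.453%, 1.01%, 0.869%, 1.12% and 1.58%. Thinning left out 1488, 417, 0, 1827, 0 and 0 nuclei with under 500 UMIs. A nucleus held at most 6 UMIs of Il1b, 9 of Tnf and 7 of Cd83. In 126 neuron-like nuclei, with a median of 3001 UMIs against 709 in microglia-like nuclei, Il1b, Tnf and Tnfaip3 had 0 UMIs. By the limit of 3 counts this allows a share of up to 2.38% (exact binomial upper bound 2.89%). That is above the shares of 0.626%, 1.52% and 1.67% in microglia-like nuclei, so shares alone do not separate them. Per UMI the limit was lower, since 3 UMIs in the neuron-like nuclei were 7.09 CPM. Microglia-like nuclei, pooled over the libraries, held 10.8, 24.8 and 22.1 CPM of the 3 genes. Of the 126 neuron-like nuclei, 26 and 61 came from the E4 libraries. Nfkb1 was found in 11.1% of neuron-like and 13.7% of microglia-like nuclei, and in 0.794% and 9.26% once thinned to 500 UMIs. Rela was found in 7.14% and 4.42%, and in 1.59% and 2.96% once thinned.

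Pooled over the libraries, nuclei with Tnf held Il1a, Il1b or Cd83 more often than nuclei without it. Thinned to 500 UMIs, 296 nuclei held Tnf, and 3.38% of them held Il1b (95% interval 1.63% to 6.13%) against 0.426% of the nuclei without Tnf. Cd83 was in 9.80% of the Tnf nuclei against 3.66% of the others, and Il1a in 8.45% against 2.21%. Il18 was in 1 of the Tnf nuclei, or 0.338% (0.00855% to 1.87%), against 1.23% of the others, so this count does not separate them. Nfkbia (8.78% against 1.86%), Nfkb1 (15.5% against 9.01%), Tnfaip3 (3.72% against 1.04%) and Nlrp3 (6.76% against 3.55%) were also more frequent in the Tnf nuclei. Rela was in 4.39% (2.36% to 7.39%) against 2.94%. Of the 128 nuclei with Il1b, 7.81% held Tnf against 1.03% of the others. The pooled libraries differ in their Tnf and Cd83 levels, so part of these differences can lie between libraries. Within libraries, 0 of 32 Tnf nuclei in E4/TREM2+ and 0 of 20 in E4/TREM2- held Cd83. The 95% upper bounds of 10.9% and 16.8% lie above the 1.54% and 1.09% of the other nuclei, so these counts do not separate them. In E4/TREM2+ 5 of the 32 Tnf nuclei held Il1a (15.6% against 3.14% of the others) and 1 held Il1b (3.13% against 0.729%). In E4/TREM2- 0 of the 20 held Il1a or Il1b. In the 4 libraries with P301S, Cd83 was in 5.56%, 14.3%, 14.5% and 11.7% of the Tnf nuclei, against 4.03%, 2.63%, 5.89% and 4.69% of the others. Nuclei of 1 library are not replicates, and these shares are a description.

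The genes also differed in which clusters held them. Clusters were built without the 10 genes, and their levels, pooled over the libraries, are given as a description. Il1b was 49.5 CPM in the immediate early and chemokine cluster, 43.7 CPM in a cluster led by Cxcl10 and Ifit genes, 31.0 CPM in the border-associated macrophage-like cluster and 23.7 CPM in a cluster led by Lpl, Ccl4 and Csf1. In the other microglia-like clusters it was 3.5 to 10.8 CPM. Of the nuclei of the immediate early cluster, 412 and 331 of 978 came from the E4 libraries. Within a library its Il1b level, from 1 to 16 UMIs, was not the highest in 5 of 6 libraries, but such low counts do not settle an order. In E4/TREM2+ the Lpl cluster stood at 97.3 CPM (4 UMIs) against 59.6 CPM (16 UMIs). In P301S/EKO/TREM2+ the Cxcl10 and Ifit cluster stood at 89.8 CPM (7 UMIs) against 23.8 CPM (1 UMI). In P301S/E4/TREM2+ the Lpl cluster stood at 21.0 CPM (34 UMIs) against 19.8 CPM (1 UMI). Tnf was 206 CPM in the Cxcl10 and Ifit cluster, 65.7 CPM in the Lpl cluster and 36.4 CPM in the immediate early cluster. Cd83 was 174 CPM in the Lpl cluster, 172 CPM in the Cxcl10 and Ifit cluster and 106 CPM in a cluster led by Gpnmb, where Il1b was 3.5 CPM. Il1a was 105 CPM in the immediate early cluster and 14.4 CPM in the border-associated macrophage-like cluster. In the E4 libraries the immediate early cluster held Il1a at 134 and 122 CPM, from 36 and 30 UMIs. In the 4 libraries with P301S it held only 1 or 2 Il1a UMIs, and the Lpl cluster was higher in each.

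**Figure D3:**
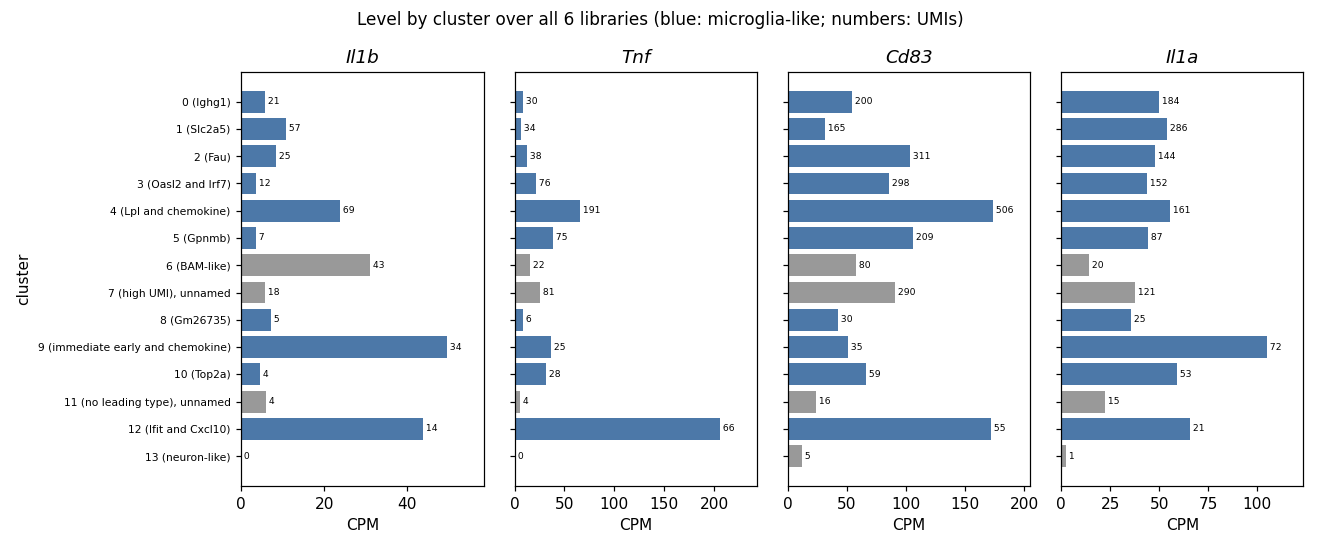
Level in CPM of Il1b, Tnf, Cd83 and Il1a in each of the 14 clusters over all 6 libraries, with the UMIs behind each bar; blue bars are microglia-like clusters and BAM stands for border-associated macrophage. Over the pooled libraries Il1b is 49.5 CPM in cluster 9, whose nuclei came mostly from the E4 libraries, and Tnf is 206 CPM in cluster 12.

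The clusters that held most Il1b differed between libraries. The immediate early cluster held 26.2% and 16.9% of the Il1b UMIs of the E4 libraries and 1.64% and 3.28% of those of the P301S/E4 libraries. In the P301S/EKO libraries it held 2.38% with TREM2 and 13.8%, 4 of 29 UMIs, without it. The Lpl cluster, 31.8% of the nuclei of P301S/E4/TREM2+ and 11.3% of those of P301S/E4/TREM2-, held 55.7% and 26.2% of their Il1b UMIs. In P301S/E4/TREM2- the border-associated macrophage-like cluster, 5.45% of the nuclei, held 23 of the 61 Il1b UMIs, or 37.7%. Outside those macrophages and the immediate early cluster, Il1b was 13.9, 10.1, 11.4, 8.20, 10.1 and 4.60 CPM. A summed level cannot tell apart fewer nuclei of a kind and less RNA in each nucleus.

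**Figure D4:**
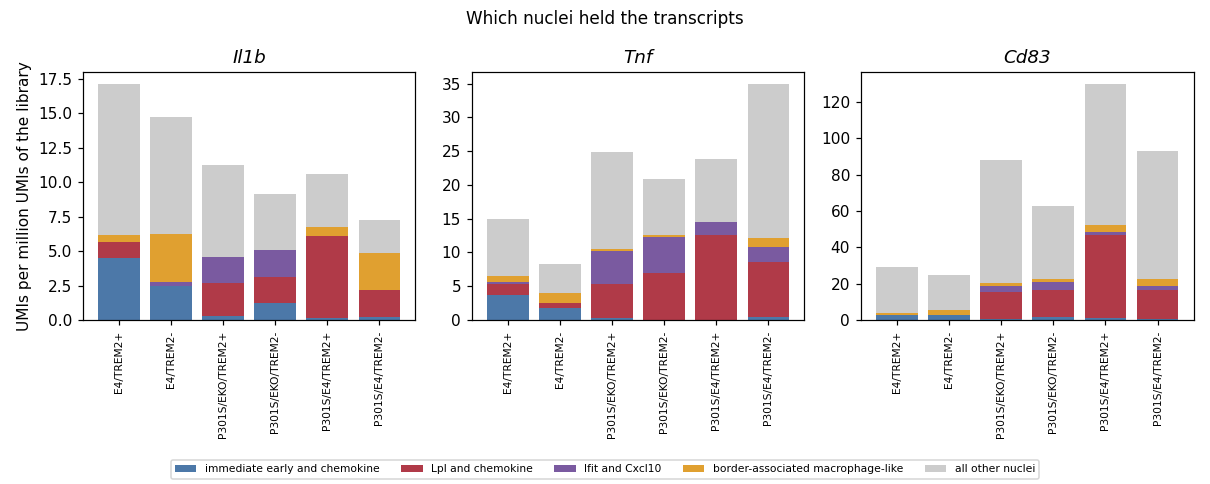
CPM of Il1b, Tnf and Cd83 in each library, stacked by the cluster whose nuclei held them. The Il1b of the E4 libraries includes a blue part from the immediate early cluster that is small in the P301S/E4 libraries (1.64% and 3.28%) and is 13.8% in P301S/EKO/TREM2-, while red, from the Lpl cluster, grows in all 3 genes.

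Markers of other cells moved with some of these results. The 8 border-associated macrophage markers summed to 920 and 1012 CPM in E4, 378 and 512 CPM in P301S/EKO and 661 and 964 CPM in P301S/E4. In P301S/E4/TREM2- most of that sum was Stab1 (558 CPM) and Ms4a7 (177 CPM). Each other marker of that list was lower there than in both E4 libraries, with Mrc1 at 121 CPM against 134 and 180 CPM. The 7 monocyte markers summed to 17.7 to 22.4 CPM in the E4 and P301S/EKO libraries and to 30.6 and 58.1 CPM in P301S/E4 with and without TREM2. Ly6c2 and Chil3, defining genes of monocytes, were at 0 in both E4 libraries and at most 5.73 CPM elsewhere. The monocyte gene Ccr2 was 15.5 and 18.2 CPM in the E4 libraries, and Vcan and Fn1 were above 0 in all 6. The neutrophil gene Ngp and the T cell gene Cd3e were at 0 in every library, while S100a8, Cd3d and Trbc2 were counted in some, at up to 1.19 CPM, and Csf3r at 335 to 534 CPM in all. The 10 neuron markers summed to 738 and 1964 CPM in E4 against 166 to 483 CPM in the other libraries, and the 6 astrocyte markers to 363 and 383 CPM against 421 to 691 CPM. Meg3 alone gave 464 and 1607 CPM of the E4 neuron sums. The part of these cells in the levels of the 10 genes was not tested, beyond the fit over microglia-like nuclei alone. In that fit the tau log2 fold changes were 1.42 for Tnf, 1.98 for Cd83 and -1.08 for Il1b.

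Other genes of the pathway were called more often higher than lower in the tau comparison. Their lists were chosen with earlier results of these data known, so the counts describe the lists and are not a test of the pathway. Of 119 listed genes 102 could be tested, and 31 rose and 5 fell, where 7.80% and 9.24% of all genes tested did. DESeq2 called 20 of the 102, where it called 1347 of all 12515 genes tested. Their median log2 fold change was 0.18 against -0.0015 for all genes. Among 25 tested NF-kB target genes 13 rose and 0 fell. The largest rises were those of Cxcl10, a chemokine for T cells (4.45, SE 0.46), Csf1, the microglial growth factor (4.20, SE 0.20), Ccl5 (3.56, SE 0.57) and Gadd45b, a stress response gene (2.22, SE 0.44). Csf1 was 10.7, 8.47, 94.99, 43.8, 228 and 140.1 CPM in the 6 libraries. All 4 libraries with P301S were higher than both E4 libraries, and P301S/E4/TREM2+ was the highest.

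Among adaptors and kinases, further NF-kB subunits and the list of inhibitors, calls in both directions occurred only in the list of inhibitors. Of all genes tested, 7.80% were called higher and 9.24% lower in the tau comparison. Of 13 genes tested from the list of inhibitors 5 rose, among them Bcl3, an atypical IkB (2.55, SE 0.37), and Nfkbiz (0.84, SE 0.17). Nfkbid fell (-0.96, SE 0.22). The name of the list does not show what these genes do here, and their effect on NF-kB activity was not tested. Of 28 adaptors and kinases 3 rose, which is near the share of all genes called higher. They were Ikbke, an IKK-related kinase (4.45, SE 0.30), Traf1 (2.14, SE 0.54) and Map3k8 (1.24, SE 0.15). Ikbke was 2.81, 1.99, 12.6, 4.73, 62.5 and 45.0 CPM. Of the 3 further subunits Relb alone rose (0.72, SE 0.19).

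Calls among receptors, ligands and inflammasome genes went in both directions in each list, where 7.80% of all genes tested were called higher and 9.24% lower. Of 11 receptors tested 3 rose, with Il1r1, the signalling IL-1 receptor, at 1.57 (SE 0.44), and Il6ra fell (-0.72, SE 0.12). Of 8 ligands and antagonists tested 2 rose and 2 fell. Il18bp, which neutralises IL-18, rose by 1.80 (SE 0.27), and Il6 fell by 1.72 on the log2 scale (SE 0.34). Il6 was 10.1, 12.2, 8.03, 15.8, 3.12 and 3.94 CPM, lowest in both P301S/E4 libraries. Of 14 inflammasome genes 4 rose, with Casp4 at 0.73 (SE 0.20) and Pycard, the adaptor of NLRP3, at 0.41 (SE 0.12), and Txnip fell (-0.88, SE 0.13).

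In the APOE4 comparison 4 of the 102 genes rose and 2 fell, where 1.80% and 1.87% of all genes tested did. Ikbke (2.69, SE 0.25), Gadd45b (1.76, SE 0.42), Il18bp (1.46, SE 0.26) and Csf1 (1.46, SE 0.16) were higher in P301S/E4 than in P301S/EKO. Il6 (-1.71, SE 0.34) and Tnfsf13b, which encodes the B cell survival factor BAFF (-0.92, SE 0.18), were lower. In the TREM2 comparison edgeR and DESeq2 each called 0 of the 102 genes, where they called 14 and 16 of all 12515 genes tested. In edgeR 13 of the 102 had an unadjusted p under 0.05, as did 778 of the 12515.

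The genes most like each cytokine over the 6 libraries were found by Pearson correlation of log2(CPM + 1) among 11808 genes with at least 100 UMIs. For Il1b they were C1qc, a complement subunit (r = 0.990), Gm10138 (r = 0.989) and Gm3164 (r = 0.988). For Tnf they were Ankrd16 (r = 0.996), Spryd3 (r = 0.995) and Syncrip (r = 0.992). For Cd83 they were Itpkb (r = 1.000), Nfe2l2, the oxidative stress factor (r = 0.997), and Gm15283 (r = 0.997). With 6 points and so many genes searched, such values describe a shared order of libraries, which also share depth. C1qc itself spanned 2132 to 2520 CPM, a far smaller range than that of Il1b.

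The authors' deposited tables, calculated over nuclei, hold the same genes. In the authors' deposited table of cluster markers, which lists 50 genes for each of 7 clusters, the cluster named Inflam lists Il1b (log fold change 3.04), Tnf (2.85) and Cd83 (1.51), and no other cluster lists any of the 10. In the authors' deposited table of TERM nuclei, the authors' name for a microglial state, against homeostatic nuclei, Tnf was 2.07, Tnfaip3 0.90 and Cd83 0.82, while Il1b was -0.64 and Nlrp3 -0.34. In the authors' deposited table of P301S/E4/TREM2+ against P301S/E4/TREM2-, Il1b was 1.86, Cd83 0.18, Tnf -0.36 and Il18 -0.91, where a positive value is taken as higher with TREM2. That table does not state its direction, which was read from Spp1, at 1.5 there and lower in the TREM2- libraries here (TREM2 log2 fold change -2.23, SE 0.18, edgeR adjusted p = 0.000619). The base of these logarithms is not stated. Here Il1b in P301S/E4/TREM2- was 0.690-fold its level in P301S/E4/TREM2+, with a log2 interval of -1.07 to 0.00, and Tnf was 1.46-fold.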

How the data were processed

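The authors deposited, per library, a matrix of raw UMI counts per gene and nucleus; per the file headers and the submitters' processing notes it came from Cell Ranger 3.0.1 with mm10. The authors' deposited tables of log fold changes, used as a score of unstated base, were only set beside the values. The labels give no batch.

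Of 33335 deposited nuclei, those with under 200 genes (307) or over 5% mitochondrial UMIs (1324) were left out, some for both, 1597 in all. Libraries shared 5 to 13 barcodes per pair. No doublet caller was run, so doublets remained. Nuclei were clustered (scanpy 1.11.5, leidenalg 0.10.2, resolution 1, 2000 genes without the 10 members) and named from markers.

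UMIs of all passing nuclei were summed per library. edgeR 4.0.16 in R 4.3.3 (TMM, filterByExpr, quasi-likelihood F test, 2 residual degrees of freedom, limma 3.58.1) fitted background plus TREM2 genotype. Calls took an adjusted p (Benjamini-Hochberg, over 12515 genes) of at most 0.05, and SE is the absolute log2 fold change divided by the square root of F. Single libraries have exact Poisson intervals, shares exact Clopper-Pearson intervals and pairs exact conditional binomial intervals, all at 95% and for counting error only. Floors use 3 counts. DESeq2 1.42.0 was an alternative. The procedure was tested on simulated data with 200 genes changed in the tau comparison. It called 70% of the 2-fold and 97% of the 4-fold changes, and 4.57% of its calls were false. The simulation used 1 common dispersion and no difference between backgrounds in the effect of TREM2, so it does not cover such differences. Gene positions are from GENCODE vM21.

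The 10 members and all lists were chosen with earlier results of these data known. All 10 members are given. Pathway genes are named only if called, at most 6 per role and comparison with the largest absolute change, and 3 genes are named as most like Il1b, Tnf and Cd83. Strand-blind reading of overlapping genes was not tested.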

Additional observations from a re-analysis of the deposited data

How the results depend on the processing

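Of the log2 fold changes of the 10 genes over 15 alternatives, 396 kept direction and side of the threshold, 14 lost a call, 9 gained one and 31 changed sign, none of the last among values called in the full fit. No paired analysis was possible because each genotype has 1 library. The genes called in the TREM2 comparison numbered 14, and 226 with no filter on low counts, 22 after thinning to 500 UMIs, and 11 to 114 with 1 library left out. In the tau comparison they numbered 2133, 1347 with DESeq2 and 1083 to 2788 with 1 library left out. In the APOE4 comparison they numbered 459, 1258 with no filter, 269 in microglia-like nuclei alone and 282 to 1300 with 1 library left out. The share called higher moved from 28.6% to 56.6% with no filter and to 6.67% in microglia-like nuclei in the TREM2 comparison, and from 49.0% to 61.0% in microglia-like nuclei and 58.9% after thinning in the APOE4 comparison.

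Among uncalled TREM2 values, Tnf became 0.037 with at least 500 genes per nucleus and 0.056 after thinning, and Il1a became -0.00079 after thinning. Rela became 0.0090 in microglia-like nuclei, 0.046 with at least 500 genes, 0.0018 with no mitochondrial limit, 0.056 after thinning, 0.010 without the immediate early and chemokine cluster and 0.042 without the high-UMI cluster, the last 2 being alternatives chosen after seeing the data. In the APOE4 comparison Il1b became 0.060 with no mitochondrial limit and Tnfaip3 -0.015 in microglia-like nuclei. With 1 library left out, the TREM2 values ranged from -0.45 to 0.20 for Tnf, -0.085 to 0.28 for Il1a, -0.10 to 0.16 for Il18 and -0.22 to 0.17 for Rela. Rela ranged from -0.11 to 0.46 in the tau comparison, and the APOE4 values ranged from -0.11 to 0.86 for Tnf, -0.057 to 0.40 for Il1a, -0.12 to 0.26 for Il18 and -0.33 to 0.57 for Tnfaip3. Such fits leave 1 residual degree of freedom and assume that a lone library varies like the others. The causes were not tested. The tau call of Tnf was lost without E4/TREM2-, and that of Il1a was gained without it (-0.79, edgeR adjusted p = 0.0486) while without E4/TREM2+ it was -0.15 (edgeR adjusted p = 0.785), Rela was called in the APOE4 comparison without P301S/E4/TREM2+ (0.67, edgeR adjusted p = 0.0449), and Nlrp3 in the tau comparison after thinning (-0.50, edgeR adjusted p = 0.0474). Low counts limit Il1b most, at 29 to 61 UMIs per library.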
